A study of Mus musculus with 22 samples.

Results

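The 10 genes described here, *Krt7*, *Krt8*, *Krt18*, *Krt19*, *Epcam*, *Cldn3*, *Cldn4*, *Cldn7*, *Elf3* and *Esr1*, mark luminal epithelial cells of the mammary gland and were picked by symbol from the 41388 genes counted. They were taken as a measure of mammary tumor cell RNA in stromal cells sorted from tumors. The members did not vary together as a single measure. In the 10 CD45- libraries *Krt8* and *Krt18* together held 196151 counts, while *Epcam*, *Cldn3*, *Cldn4*, *Cldn7* and *Elf3* together held 240 counts. In the 12 CD45+ libraries the same sets held 14501 and 723 counts. No library of the tumor cells themselves is in the series, so the levels of these genes in the tumor line are not known. The part of tumor cell RNA in the counts was not tested. The name used below, the 10 luminal epithelial genes, states no source of the reads.

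Luminal cells line the ducts of the mammary gland. Their cytoskeleton is built from keratins of simple epithelia, in which a type II keratin such as Krt7 or Krt8 pairs with a type I keratin such as Krt18 or Krt19. Their lateral membranes carry claudins, which form tight junctions, and Epcam, a cell surface adhesion protein. Elf3 is an ETS family transcription factor of epithelia, and Esr1 is the estrogen receptor alpha, which a subset of luminal cells uses to sense the hormone. Several of these genes are also known outside luminal cells. Simple epithelial keratins are made by mesothelium, *Epcam* by Langerhans cells and some other dendritic cells, and *Esr1* by fibroblasts.

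RNA was sequenced from 22 libraries of C57BL/6 mice at postnatal day 56, after GFP+ PyMT-BO1 mammary tumor cells had been separated from the stroma and the rest had been sorted by TdTomato and CD45. The 4 populations were TdTOSX single positive (TdTOSX+;CD45-), double positive (TdTOSX+;CD45+), CD45 single positive (TdTOSX-;CD45+) and double negative (TdTOSX-;CD45-). The 11 libraries labelled wild type (WT) came from Osx-cre;Ai9 mice and the 11 labelled cKO from Cdh2-cKO;Ai9 mice, with 2 libraries of TdTOSX single positive cells and 3 of every other population in each genotype. Mice of both genotypes carried Ai9, the Cre-dependent TdTomato reporter, all bore tumors, and no group was free of tumor. In Osx-cre mice the regulatory sequence of Osterix (*Sp7*) drives a Cre that doxycycline represses, and TdTomato stays on in a cell and its progeny once Cre has acted. By the study's account its first tumors grew in mice with or without doxycycline, and later work with Osx-cre used mice given it in the chow until weaning. In mice so fed, activity before weaning would not be marked. Some tumors grew in mice with a tamoxifen-inducible Cre instead. The labels of these libraries do not state the diet. According to the labels 4 WT and 6 cKO mice were inoculated, and the prepared RNA samples that passed a test of integrity were sequenced, with an average RIN of 8.95. The tumor is subcutaneous in the study's methods and orthotopic in the labels of the libraries.

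Reads counted on genes numbered 16594228 to 26784003 in a library, and 3 counts in a library, the least taken as present, corresponded to 0.103 to 0.200 normalized CPM (CPM, the counts scaled to a common library size, after TMM scaling). *Cdh2*, the gene targeted in the cKO mice, was not lower in the libraries labelled cKO. It stood at 9.13 and 5.18 normalized CPM in WT and 17.2 and 13.1 in cKO TdTOSX single positive libraries, and at 6.01, 7.46 and 4.51 in WT and 12.4, 18.4 and 14.2 in cKO double negative libraries. Its mean log2 difference over the 4 populations was 0.63 (SE 0.396, edgeR quasi-likelihood test, adjusted p = 0.559). A count per gene includes exons that a deletion can leave in place, so the label could not be checked in this way, and "cKO" below means the label. *Sp7* itself had 3 reads in all 22 libraries. *Ptprc*, which encodes CD45, ranged from 471 to 1818 normalized CPM in CD45+ libraries and from 2.45 to 337 in CD45- libraries, so the CD45- libraries held leukocyte RNA to very different degrees. The highest level was in WT double negative replicate 3, where 8 leukocyte genes summed to 8103 normalized CPM, against 215 to 5480 in the other CD45- libraries and 13956 to 16923 in CD45+ libraries. In sorted bulk samples such as these, fewer cells of a type and less RNA per cell cannot be told apart.

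*Krt8* and *Krt18* are the partners of the simplest keratin filament, and they carried most of the signal. They lie 23873 bases apart on chromosome 15, *Krt8* at chr15:101996711-102004342 on the minus strand and *Krt18* at chr15:102028216-102032026 on the plus strand (GRCm38). Their upstream sequences are shown because the levels of both genes moved together from library to library. The sequences are from the RefSeq promoter entries on GRCm38.p6, 5′ to 3′ on the strand of the gene, cut where an annotated transcript begins. The *Krt8* run covers chr15:102004483-102004592 on the minus strand and the *Krt18* run chr15:102027966-102028179 on the plus strand.
Krt8: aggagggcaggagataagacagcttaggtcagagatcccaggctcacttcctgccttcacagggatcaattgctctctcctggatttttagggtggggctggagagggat
Krt18: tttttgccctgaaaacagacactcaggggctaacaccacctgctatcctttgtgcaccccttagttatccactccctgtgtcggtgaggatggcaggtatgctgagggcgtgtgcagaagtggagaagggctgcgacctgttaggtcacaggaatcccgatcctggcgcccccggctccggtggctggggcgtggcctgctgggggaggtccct
Capitals would mark a match to any of 6 motifs searched on both strands, and neither of these runs holds one. The motifs were the palindromic estrogen response element, AACCGGTT (Grainyhead-like), CCGGAAGT (ETS), TGANTCA (AP-1), GGGCGG (GC box) and TATAAA. Of 32851 promoter entries of 300 bases, 0.07%, 0.146%, 3.89%, 7.81%, 35.7% and 13.6% held them, in this order. In its whole entry *Krt8* has 2 overlapping TATAAA matches at the start site, and *Krt18* has none of the motifs. The GC content of the printed runs is 53.6% for *Krt8* and 60.7% for *Krt18*.

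*Krt18* stood at 17.8 and 431 normalized CPM in WT TdTOSX single positive libraries and at 665 and 692 in cKO ones. In double negative libraries it stood at 397, 1115 and 372 normalized CPM in WT and at 972, 1567 and 844 in cKO. WT TdTOSX single positive replicate 1 was thus far below every other CD45- library. In double positive libraries *Krt18* stood at 32.4, 17.3 and 34.7 normalized CPM in WT and at 27.6, 41.6 and 97.1 in cKO. In CD45 single positive libraries it stood at 17.4, 67.6 and 46.6 in WT and at 38.5, 168 and 72.9 in cKO. Apart from WT TdTOSX single positive replicate 1, every CD45- library was above every CD45+ library.

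*Krt8* followed the same order. It stood at 8.67 and 124 normalized CPM in WT and at 208 and 214 in cKO TdTOSX single positive libraries. Double negative libraries held 91.1, 278 and 99.8 normalized CPM in WT and 246, 412 and 210 in cKO. The CD45+ libraries ranged from 4.27 to 48.9 normalized CPM with a median of 13.3, against a median of 209 in the CD45- libraries, and the only overlap again came from WT TdTOSX single positive replicate 1. The Pearson correlation of log2 normalized CPM between *Krt8* and *Krt18* was 0.995 over 22 libraries (Spearman 0.993), 0.994 over the 10 CD45- libraries and 0.983 over the 12 CD45+ libraries. These are descriptions across libraries that share the sort and the cDNA amplification.

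Per length, that is in RPKM computed from the normalized CPM, *Krt18* exceeded *Krt8* in every library. The ratio of *Krt18* to *Krt8* in RPKM ranged from 2.65 to 5.62 with a median of 4.54. It lay between 4.80 and 5.62 in the 6 double negative libraries and between 2.65 and 4.48 in the 4 TdTOSX single positive libraries. These ranges did not overlap, but the ratio was not tested between populations. How often the ratio of other gene pairs separates these libraries was not computed, so the separation is a description only. In CD45+ libraries the ratio ranged from 3.69 to 5.27. The lowest ratio was that of WT TdTOSX single positive replicate 1, the library with the least of both keratins among CD45- cells.

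**Figure D1:**
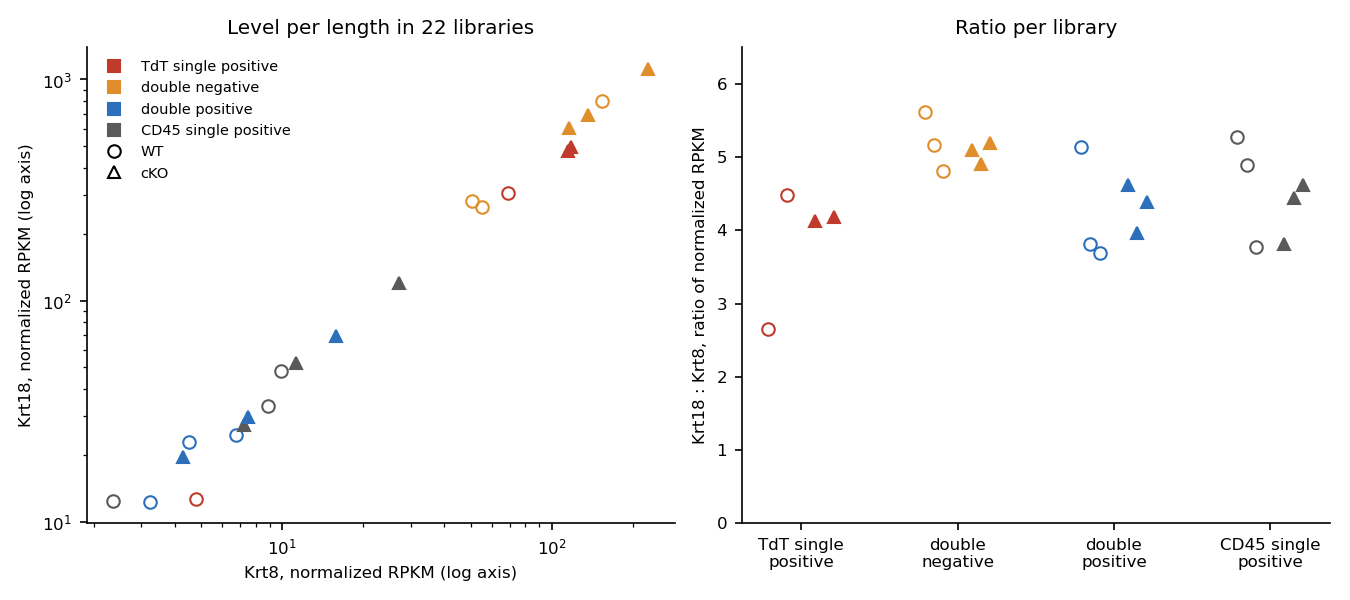
Left, *Krt18* against *Krt8* in each of the 22 libraries, both in normalized RPKM on log axes, with the population shown by color and the genotype by marker. Right, the ratio of *Krt18* to *Krt8* per length in each library by population. The points on the left fall along a line over the whole range of levels. The ratio on the right lies between 2.65 and 5.62. The double negative libraries lie above the TdTOSX single positive ones, which was not tested.

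*Krt7* (chr15:101411043-101430313) and *Krt19* (chr11:100140810-100148665) encode the other simple keratins of luminal ducts. They were far less abundant than *Krt8* and *Krt18*, and found in CD45- cells in the main. *Krt7* stood at 7.70 and 8.36 normalized CPM in WT and at 2.84 and 5.14 in cKO TdTOSX single positive libraries. Double negative libraries held 5.23, 2.45 and 0.990 normalized CPM of it in WT and 3.36, 3.29 and 4.04 in cKO. All 12 CD45+ libraries lay between 0 and 0.430 normalized CPM, below every CD45- library.

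*Krt19* stood at 6.53 and 3.91 normalized CPM in WT and at 2.33 and 6.10 in cKO TdTOSX single positive libraries. In double negative libraries it stood at 14.5, 2.40 and 3.68 in WT and at 4.20, 8.76 and 2.87 in cKO, with WT double negative replicate 1 above the rest. The 12 CD45+ libraries had 0 to 2 counts each, 8 counts in all and under the floor of 3 counts in every library. The 2 keratins did not follow *Krt8* and *Krt18* among CD45- cells. WT TdTOSX single positive replicate 1, lowest in *Krt18*, ranked high in *Krt7* and in *Krt19*. Over the 10 CD45- libraries the Pearson correlation of log2 levels with *Krt18* was -0.40 for *Krt7* and -0.23 for *Krt19*, while the correlation with the summed level of 10 fibroblast genes was 0.92 for *Krt7* and 0.41 for *Krt19*. Without WT TdTOSX single positive replicate 1 the correlation of *Krt7* with *Krt18* was -0.03, and that with the fibroblast sum was 0.91 for *Krt7* and 0.37 for *Krt19*.

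*Epcam* (chr17:87635979-87651106, plus strand) went the other way. It was at or near 0 in CD45- cells and present in CD45+ cells. Its upstream sequence is shown with that of *Cldn4* (chr5:134945126-134946934, minus strand), a claudin of tight junctions, because these are the junction genes most often used to mark luminal cells and both had 0 counts in WT TdTOSX single positive cells. The *Epcam* run covers chr17:87635729-87635978 on the plus strand and the *Cldn4* run chr5:134946935-134947184 on the minus strand, both from RefSeq on GRCm38.p6.
Epcam: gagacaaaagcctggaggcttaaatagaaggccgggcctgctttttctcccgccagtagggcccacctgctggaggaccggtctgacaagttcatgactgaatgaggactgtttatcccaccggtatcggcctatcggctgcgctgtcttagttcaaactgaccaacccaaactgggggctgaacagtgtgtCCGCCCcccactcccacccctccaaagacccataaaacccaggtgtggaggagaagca
Cldn4: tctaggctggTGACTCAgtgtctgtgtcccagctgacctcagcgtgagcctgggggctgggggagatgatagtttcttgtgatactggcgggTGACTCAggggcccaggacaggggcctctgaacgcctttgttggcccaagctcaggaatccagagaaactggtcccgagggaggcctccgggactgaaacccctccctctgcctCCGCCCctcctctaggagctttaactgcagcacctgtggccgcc
Capitals mark matches to the motifs named above. *Epcam* has a GC box on the opposite strand (CCGCCC), and *Cldn4* has 2 AP-1 matches (TGACTCA) and a GC box on the opposite strand within the printed run. Its whole entry holds a second GC box, which begins in the last printed bases and runs past their end, and is not in capitals. The GC content of these runs is 56.4% and 62%. None of the members with a promoter entry, 9 of 10, held the estrogen response element or the Grainyhead-like motif, which were rare among all entries. *Krt19* has no entry in the table used.

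*Epcam* had 0 counts in both WT TdTOSX single positive libraries and 12 and 1 counts in the cKO ones. In double negative libraries it had 0, 0 and 37 counts in WT and 0, 1 and 3 in cKO, so that WT double negative replicate 3 held 37 of the 54 *Epcam* counts of CD45- cells. That library is also the one richest in leukocyte genes among CD45- cells. In double positive libraries *Epcam* stood at 6.53, 2.98 and 7.96 normalized CPM in WT and at 1.54, 1.79 and 0.541 in cKO. In CD45 single positive libraries it stood at 5.95, 1.20 and 2.74 in WT and at 5.65, 1.40 and 0.768 in cKO. All 12 CD45+ libraries were above every CD45- library but WT double negative replicate 3, which was at 2.03.

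The claudins and *Elf3* were close to the limit of detection in all populations. *Cldn3* (chr5:134986214-134987472), a tight junction claudin whose gene lies 39279 bases from *Cldn4*, had 1 and 0 counts in WT and 74 and 0 in cKO TdTOSX single positive libraries. In double negative libraries *Cldn3* had 6, 18 and 5 counts in WT and 16, 5 and 11 in cKO, and the CD45+ libraries held 8 counts in all. A single library, cKO TdTOSX single positive replicate 1, therefore held 74 of its 144 counts. *Cldn4* had 4 and 13 counts in cKO TdTOSX single positive libraries, 2, 6 and 8 in cKO double negative libraries, 1 in WT double positive replicate 3 and 0 in the other 16 libraries. Only 4 libraries reached the floor of 3 counts, at 0.592 normalized CPM or less, and *Cldn4* was too low to be tested. *Cldn7* (chr11:69964779-69967885), also a claudin, had 22 counts over all libraries and at most 4 in any. *Elf3* (chr1:135253575-135258568) had 16 counts over all libraries and at most 5 in any, and was at 0 in 16 libraries.

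*Esr1* (chr10:4611593-5005614) was found in every library. It stood at 32.8 and 16.8 normalized CPM in WT and at 19.9 and 24.1 in cKO TdTOSX single positive libraries. Double negative libraries held 23.6, 11.6 and 11.5 normalized CPM of it in WT and 15.6, 17.3 and 17.1 in cKO. The CD45+ libraries ranged from 4.80 to 11.1 normalized CPM with a median of 8.09, and did not overlap with the CD45- libraries, whose median was 17.2. Within CD45- cells *Esr1* was highest in WT TdTOSX single positive replicate 1, the library with the least *Krt18*. Its Pearson correlation over the 10 CD45- libraries was -0.63 with *Krt18* and 0.86 with the fibroblast sum, and the former was -0.13 and the latter 0.79 without that library.

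**Figure D2:**
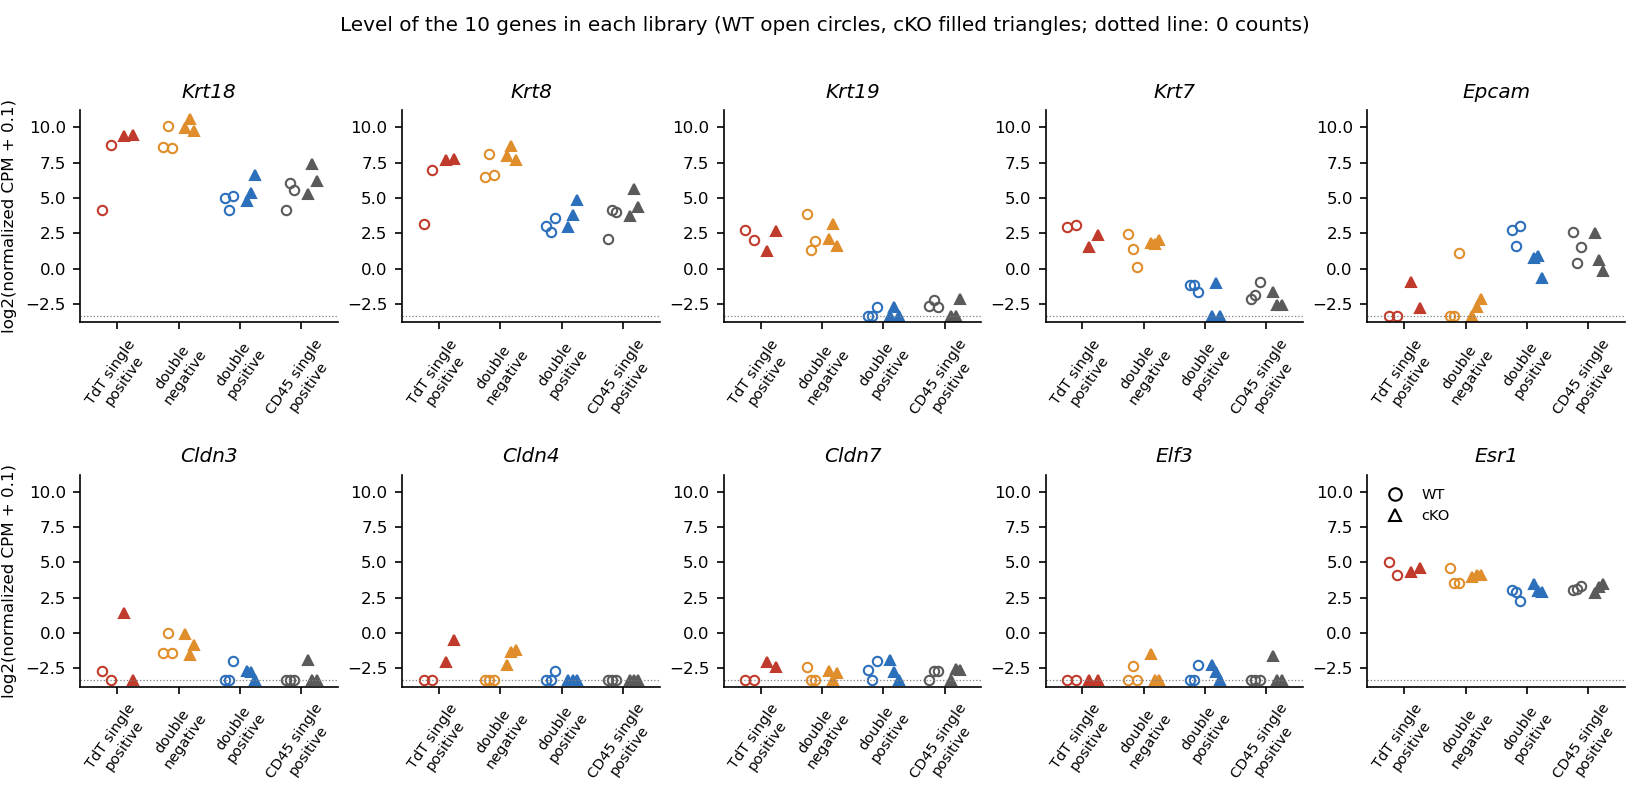
Levels of the 10 luminal epithelial genes in each library by population, as log2 of normalized CPM plus 0.1, with WT libraries as open circles and cKO libraries as filled triangles. The dotted line marks 0 counts. *Krt8*, *Krt18*, *Krt7*, *Krt19* and *Esr1* sit higher in the CD45- populations, *Epcam* sits higher in the CD45+ populations, and *Cldn4*, *Cldn7* and *Elf3* lie on or near the dotted line.

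Ordered per length by the median normalized RPKM, *Krt18* (648) and *Krt8* (126) led in double negative cells, followed by *Krt19* (2.13), *Esr1* (1.20), *Krt7* (0.471) and *Cldn3* (0.291). In TdTOSX single positive cells the order was *Krt18* (392), *Krt8* (92.0), *Krt19* (2.70), *Esr1* (1.61) and *Krt7* (0.910), with the other 5 genes at 0.0378 or less. Over the 10 CD45- libraries the normalized RPKM of *Krt18* ranged from 12.7 to 1119 and that of *Krt8* from 4.80 to 228. *Krt19* (1.25 to 7.79), *Esr1* (0.845 to 2.40) and *Krt7* (0.140 to 1.18) overlapped in RPKM with their neighbors in this order. In double positive cells *Epcam* had a median normalized RPKM of 1.17, after *Krt18* (24.0) and *Krt8* (5.61) and before *Esr1* (0.547). In CD45 single positive cells the order was the same, with *Krt18* at 40.8, *Krt8* at 9.34, *Epcam* at 1.02 and *Esr1* at 0.659 normalized RPKM.

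The comparison of CD45- with CD45+ populations sets the non-immune stroma, from which epithelial cells would not be gated out by CD45, against the immune cells. Of the 10 genes 7 passed the filter on low counts, and the other 3, *Cldn4*, *Cldn7* and *Elf3*, did not. All 7 passed the edgeR quasi-likelihood test, 6 higher and 1 lower in CD45- cells, but 63.7% of the 15043 genes tested were called in this comparison, 31.1% as higher and 32.6% as lower. *Krt7*, *Krt19* and *Cldn3* passed the filter through CD45- libraries alone, since none of the 12 CD45+ libraries was above 1 CPM. *Epcam* was above 1 CPM in 10 CD45+ libraries and 1 CD45- library, so it passed only with the CD45+ libraries. The counts of members higher and lower are therefore not support for a difference. Limma's voom fit and DESeq2 called the same 7. The log2 difference was 7.08 for *Krt19* (SE 0.546, adjusted p = 7.70e-09), with CD45+ libraries at or below 2 counts. It was 4.46 for *Krt7* (SE 0.457, adjusted p = 2.54e-07), a 22.04-fold difference. For *Krt18* it was 3.51 (SE 0.453, adjusted p = 3.87e-06) and for *Krt8* 3.41 (SE 0.423, adjusted p = 2.53e-06), or 11.4-fold and 10.6-fold. *Esr1* differed less, by 1.23 (SE 0.164, adjusted p = 5.60e-06) or 2.35-fold. *Epcam* was lower in CD45- cells, with a log2 difference of -4.96 (SE 0.908, adjusted p = 0.000165). The p-values measure the spread between libraries, and the labels call these biological replicates without tying them to mice.

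*Cldn3* passed with a log2 difference of 3.28 (SE 1.24, adjusted p = 0.0304), but rested on few reads. It was no longer called without WT TdTOSX single positive replicate 1 (2.73) or without cKO TdTOSX single positive replicate 1 (1.37). In each case the library left in that group had 0 counts of *Cldn3*. Those fits can therefore neither test nor size the difference, and 2.73 and 1.37 are not usable estimates. The *Cldn3* difference was 4.10 without WT double positive replicate 3 and 4.12 without cKO CD45 single positive replicate 1. Single libraries also moved the size of other differences, without ending a call. Without WT TdTOSX single positive replicate 2 the log2 difference was 2.60 for *Krt18* and 2.67 for *Krt8*. For *Epcam* it was -6.59 without WT double negative replicate 3. It was 5.58 for *Krt7* without cKO double positive replicate 2, and 7.81 for *Krt19* without cKO CD45 single positive replicate 3. The libraries of the populations did not overlap for *Krt7*, *Krt19* and *Esr1*, each higher in CD45- cells. Such a separation held for 11% of all genes tested. No member lay apart in the lower direction, against 3.7% of all genes. *Krt7* and *Krt19* passed the filter through CD45- libraries alone, so their lying apart is not support for a difference. *Esr1* was above 1 normalized CPM in all libraries.

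**Figure D3:**
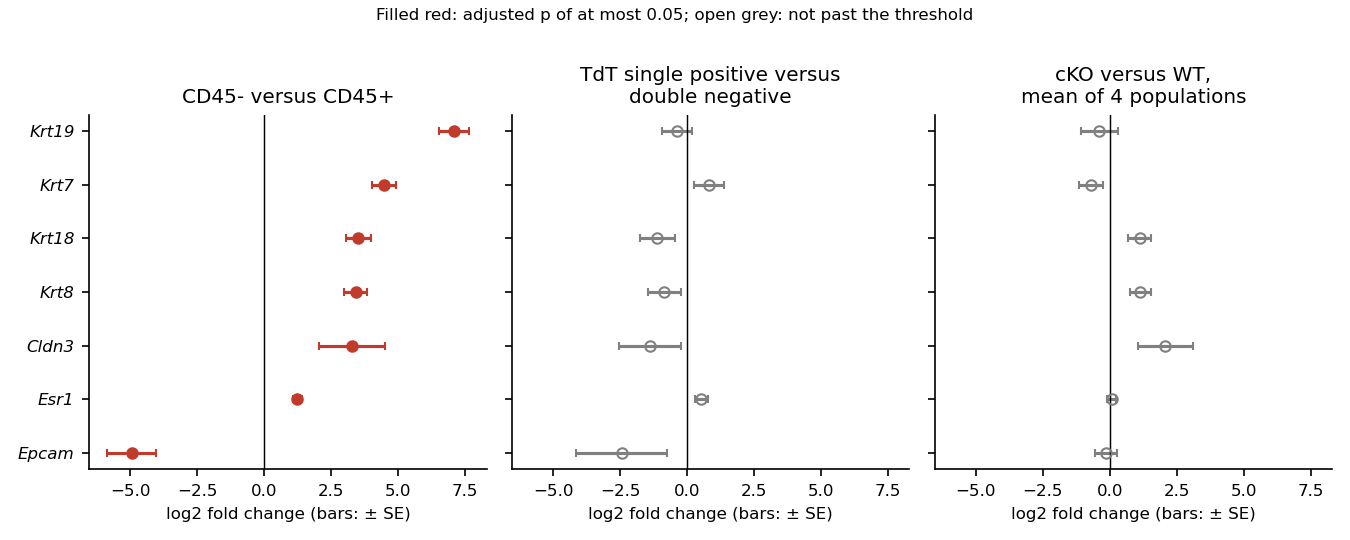
Log2 fold changes from edgeR of the 7 luminal epithelial genes tested, with bars of 1 SE derived from the F statistic. The 3 comparisons are CD45- against CD45+ populations, TdTOSX single positive against double negative cells, and cKO against WT as the mean of 4 populations. Filled red points passed the test. All 7 genes passed in the comparison by CD45, 6 of them to the right of 0 and *Epcam* to the left, and none passed in the others.

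Within CD45- cells, TdTOSX single positive and double negative populations were compared to ask whether the reporter separates cells with these transcripts. None of the 7 genes passed the edgeR test, in a comparison in which 1.89% of all genes tested did, and 1 gene, *Esr1*, had an unadjusted p below 0.05, as did 2856 of all genes (19%). Neither voom nor DESeq2 called any of the 7. The log2 difference, TdTOSX single positive minus double negative, was -1.11 for *Krt18* (SE 0.657, adjusted p = 0.368) and -0.84 for *Krt8* (SE 0.608, adjusted p = 0.464). *Krt7* differed by 0.81 (SE 0.565), *Krt19* by -0.36 (SE 0.563), *Epcam* by -2.44 (SE 1.70), *Cldn3* by -1.39 (SE 1.17) and *Esr1* by 0.53 (SE 0.241, adjusted p = 0.241). The WT TdTOSX single positive libraries lay far apart in *Krt18*, at 17.8 and 431 normalized CPM. Without replicate 2 of that group, only replicate 1 was left in it, and the log2 difference was -2.94 for *Krt18* and -2.31 for *Krt8*. With each library left out in turn, the difference ranged from -2.94 to -0.64 for *Krt18* and from -2.31 to -0.39 for *Krt8*. Within CD45+ cells, where 0.00665% of all genes passed, none of the 7 genes was called between double positive and CD45 single positive populations by edgeR, voom or DESeq2, and none had an unadjusted p below 0.05. For *Krt19* and *Cldn3*, with 8 counts each in all CD45+ libraries, and *Krt7*, with at most 8 in any, the reads were too few for this test to say anything. The log2 difference was -0.70 for *Krt18* (SE 0.572), -0.09 for *Epcam* (SE 0.829) and -0.26 for *Esr1* (SE 0.221).

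Between genotypes the levels of *Krt8* and *Krt18* were on average higher in libraries labelled cKO, but the difference did not pass the test. As the mean of 4 populations the log2 difference, cKO minus WT, was 1.15 for *Krt8* (SE 0.406, unadjusted p = 0.0114, edgeR adjusted p = 0.341) and 1.13 for *Krt18* (SE 0.432, unadjusted p = 0.0181, adjusted p = 0.362). No gene of the whole table passed this comparison with edgeR (0%), while 1733 genes (11.5%) had an unadjusted p below 0.05 and DESeq2 called 120. Among the members these were 2 at an unadjusted p below 0.05 and none with voom or DESeq2. The sign of the *Krt18* difference was the same in every population, with log2 values of 1.60 (SE 1.01) in TdTOSX single positive, 0.98 (SE 0.813) in double positive, 1.09 (SE 0.813) in CD45 single positive and 0.84 (SE 0.807) in double negative cells. The populations may come from the same tumors, so these signs are not independent repeats. How many of all genes keep the same sign throughout was not computed. The genotype difference of *Krt18* in CD45- cells minus that in CD45+ cells was 0.19 on the log2 scale (SE 0.853). Without WT TdTOSX single positive replicate 2, which left only replicate 1 in that group, the mean difference was 2.04 for *Krt18* and 1.88 for *Krt8*. Without replicate 1 of that group it was 0.89 for *Krt18* and 0.92 for *Krt8*.

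*Cldn4*, which was not tested, had 2 to 13 counts in the cKO and 0 in all WT CD45- libraries. How often other genes lie apart in this way was not computed. Of the members tested, those other than *Krt8* and *Krt18* showed no common direction by genotype. The log2 difference, cKO minus WT, was -0.70 for *Krt7* (SE 0.444), -0.38 for *Krt19* (SE 0.691), -0.14 for *Epcam* (SE 0.423), 2.08 for *Cldn3* (SE 1.02) and 0.08 for *Esr1* (SE 0.164), all with adjusted p-values from edgeR of 0.453 or more. Within single populations edgeR called none of the 7 genes, with an unadjusted p below 0.05 for 1 gene in TdTOSX single positive cells (*Cldn3*) and 1 in double negative cells (*Epcam*), and none with voom or DESeq2. Of all genes, 1583 (10.5%) and 1443 (9.59%) had such a p in these populations. After adjustment 0.00665% of all genes were called in TdTOSX single positive cells and 0% in each of the other 3 populations. In TdTOSX single positive cells the cKO libraries lay above both WT libraries for *Krt8*, *Krt18* and *Epcam* and below both for *Krt7*. With 2 libraries against 2, this was so for 21.4% of all genes in the higher and 20.7% in the lower direction. In double positive cells all 3 cKO libraries lay below all 3 WT libraries for *Epcam*, which was so for 6.06% of all genes (6.74% in the opposite direction), with a log2 difference of -2.16 (SE 1.23, adjusted p = 1). How the difference between TdTOSX single positive and double negative cells changed with genotype was also tested. No member passed with edgeR, while 0.00665% of all genes did. An unadjusted p below 0.05 was found for 2 members (*Cldn3* and *Epcam*) and for 1513 of all genes (10.1%), and DESeq2 called *Epcam* among 560 genes.

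Other epithelial genes were read from lists, and for each list the genes called in the comparison of CD45- with CD45+ populations are counted beside a median log2 difference of -0.06 over all genes tested. Of 15 tight junction and adhesion genes 9 were tested, CD45- cells having more of 2 and less of 4, with a median log2 difference of -1.01. *Cdh1*, the E-cadherin of epithelial junctions, was lower in CD45- cells, with a log2 difference of -4.07 (SE 0.647, adjusted p = 3.46e-05), with medians of 5.35 normalized CPM in CD45- and 221 in CD45+ libraries. *Marveld2*, the tricellulin of cell corners, was also lower, with a log2 difference of -2.94. Of 14 epithelial transcription and splicing factors only 3 passed the filter, and 2 were higher in CD45- cells, *Klf5* by 3.54 and *Gata3* by 1.62. *Ehf*, *Elf5*, *Foxa1*, *Esrp1* and *Grhl2*, regulators of luminal and epithelial genes, had 36, 9, 6, 9 and 90 counts in all 22 libraries together. Of 11 epithelial proteases, inhibitors and trafficking genes 8 were tested, with 3 called higher and 4 called lower in CD45- cells. The matriptase gene *St14* and its inhibitor *Spint1* were lower, with log2 differences of -4.41 and -3.31, and *Mal2*, a transcytosis protein, was higher by 5.66 at a median of 0.295 normalized CPM.

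Of 10 estrogen receptor partners and hormone response genes 6 were tested, of which CD45- cells had more of 4 and less of 1, with a median log2 difference of 3.23. *Erbb2*, a receptor tyrosine kinase, was higher by 4.58, *Gper1*, the membrane estrogen receptor, by 4.53 and *Greb1*, an estrogen receptor cofactor, by 3.56. *Pgr*, the progesterone receptor and a textbook target of *Esr1*, had 13 counts in all libraries. Of 7 milk protein genes 1 was tested, *Csn3*, which encodes kappa casein, and it was higher by 3.37. Of 8 basal and myoepithelial genes 5 were tested and 1 was higher, *Mylk*, the myosin light chain kinase of contractile cells, by 5.64. Of 9 epidermal keratinocyte genes 3 were tested and all 3 were higher, *Krtdap* by 7.32, *Sbsn* by 3.69 and *Krt10*, a keratin of upper epidermis, by 1.50. Between TdTOSX single positive and double negative cells a single gene of these and the following lists was called, a basal gene that was lower, and between double positive and CD45 single positive cells none was.

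Genes of other cell types that a sort can hold moved along the same axis. All 10 fibroblast genes were higher in CD45- cells, led by *Col1a2* at 7.72, *Lum* at 7.57 and *Col1a1* at 7.51 on the log2 scale, and their sum ranged from 5155 to 67507 normalized CPM in CD45- and from 73.1 to 269 in CD45+ libraries. All 8 endothelial genes were higher, led by *Tek*, *Esam* and *Cldn5*, and all 8 leukocyte genes were lower, led by *Cd52*, *Ptprc* and *Coro1a*. Of 9 Langerhans and dendritic genes, *Epcam* among them, 7 were lower in CD45- cells and 1 higher. *Cd207*, the langerin of Langerhans cells, was lower with a log2 difference of -4.26, and *Clec9a*, a receptor of dendritic cells, with -3.78. Of 10 mesothelial genes 9 were in the files and 8 tested, and 6 were higher in CD45- cells, among them *Wt1* by 4.92 (SE 0.498), but 4 of the list are members here. *Upk3b*, *Upk1b* and *Lrrn4*, which define mesothelium more narrowly, had 139, 104 and 40 counts in all 22 libraries. They were unevenly spread, as the highest library of each gene held 92, 51 and 26 of these counts, at 4.19, 2.32 and 1.18 normalized CPM. Skeletal muscle genes (4 of 7 tested, led by *Acta1* at 3.50, *Myl1* at 3.28 and *Actn3* at 2.14) and adipocyte genes (2 of 2, *Car3* at 3.36 and *Fabp4* at 2.80) were also higher in CD45- cells. Of 10 proliferation genes 8 were lower, led by *Mki67* at -1.14, *Bub1* at -1.05 and *Kif11* at -1.05. The part of these other cell types in the values of the members was not tested.

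Genes closest in pattern to *Krt18* by the Pearson correlation of log2 normalized CPM over 22 libraries were *Tnnt2* (0.991), a cardiac troponin, *Itgb4* (0.988), the laminin-binding integrin of hemidesmosomes, and *Anxa8* (0.988), an annexin. *Tnnt2* ranged from 12.9 to 523 normalized CPM in CD45- libraries and from 7.63 to 85.4 in CD45+ libraries. *Msln*, the mesothelin gene of the mesothelial list, was singled out after its values were seen. It correlated with *Krt18* at 0.992 over 22 libraries, 0.996 over the 10 CD45- libraries and 0.950 over the 12 CD45+ libraries, and at 0.973 over the CD45- libraries without WT TdTOSX single positive replicate 1. *Msln* stood at 2.30 and 60.01 normalized CPM in WT and at 92.1 and 88.6 in cKO TdTOSX single positive libraries. Double negative libraries held 65.6, 192 and 60.4 normalized CPM of it in WT and 140.1, 192 and 117 in cKO. Its log2 difference between CD45- and CD45+ populations was 3.28 (SE 0.503, adjusted p = 2.44e-05).

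For *Epcam* the closest genes over 22 libraries were *Bex6* (0.966), *Apobec1* (0.935), an RNA editing enzyme, and *Rasl2-9* (0.933), and for *Esr1* they were *Adgrl2* (0.940), an adhesion receptor, *Lpp* (0.940), a focal adhesion protein, and *Kremen1* (0.936), a Wnt coreceptor. These correlations span CD45- and CD45+ libraries, between which the members themselves differ. Within the 10 CD45- libraries *Epcam* had a Pearson correlation of 0.72 with the summed leukocyte level, and 0.86 with *Cdh1* (Spearman 0.67 and 0.61). *Epcam* reached the floor of 3 counts in only 3 of these libraries, so these values rest on few of them. Within the 12 CD45+ libraries its correlation was -0.54 with the leukocyte sum and 0.35 with *Cdh1*. The part of leukocyte RNA in the *Epcam* counts of CD45- cells was not tested. *Krt18* had a correlation of 0.24 with the leukocyte sum in CD45- libraries, and -0.39 without WT TdTOSX single positive replicate 1.

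**Figure D4:**
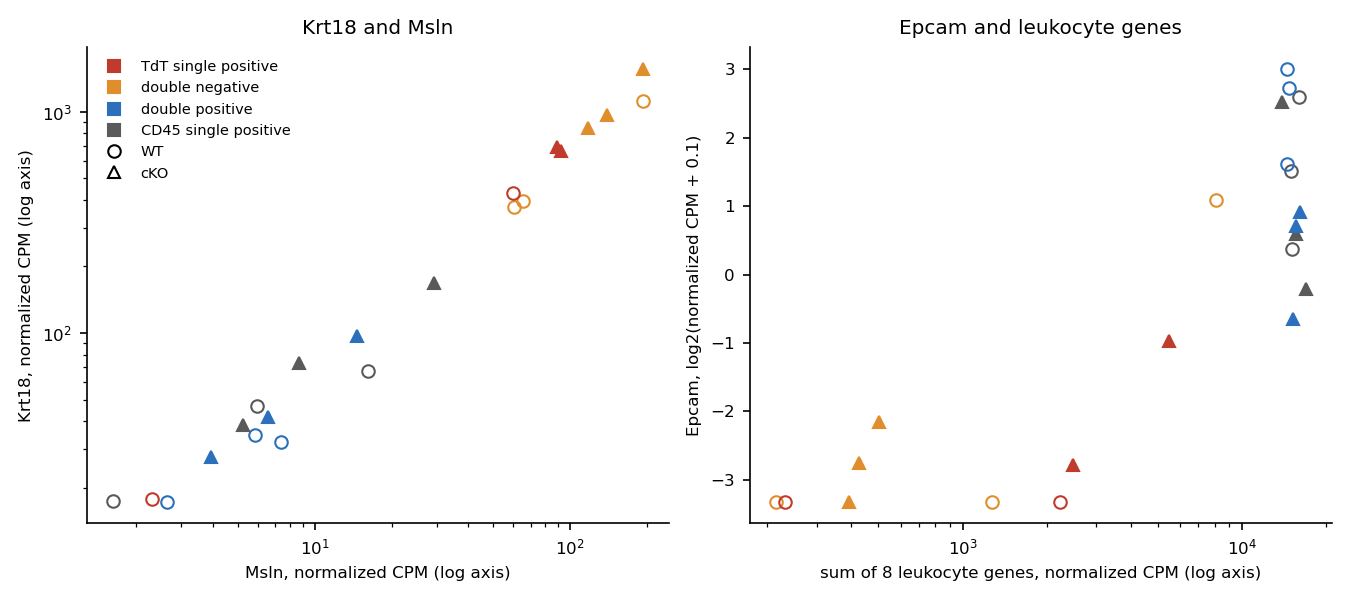
Left, *Krt18* against *Msln* in each of the 22 libraries, both in normalized CPM on log axes. Right, *Epcam* as log2 of normalized CPM plus 0.1 against the summed normalized CPM of 8 leukocyte genes. On the left the libraries of all populations lie along a common line, with WT TdTOSX single positive replicate 1 among the CD45+ libraries, and on the right the CD45- library with the highest *Epcam*, WT double negative replicate 3 at 2.03 normalized CPM, also has the highest leukocyte sum of the CD45- libraries.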

How the data were processed

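Stromal cells of 4 sorted populations from mice of 2 genotypes were profiled in 22 libraries, with groups and replicate numbers as in the labels. The authors made cDNA with the SMARTer kit, sequenced single-end reads of 50 bases, aligned them with STAR 2.0.4b to GRCm38 (Ensembl annotation) and counted uniquely aligned, unambiguous reads with featureCounts (version 1.45 in the submitters' processing notes). The strand setting of the counting is not given in the sources used here, and *Krt7*, *Krt8*, *Cldn3* and *Elf3* overlap genes on the other strand. Those over *Cldn3* and *Elf3* are among the genes counted. If strand was ignored, reads in these overlaps were left out as ambiguous, and the 2 members may be undercounted. Those over *Krt7* and *Krt8* are not among the genes counted, and their reads could not be told apart from the members. The deposited counts are whole numbers per gene without normalization. The deposited CPM and RPKM values, which the authors computed from the counts, the library total and the gene length, were not used, and normalized CPM and RPKM were computed anew from the counts with TMM factors.

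In R 4.3.3 a gene was kept if it exceeded 1 CPM in 2 or more libraries and was not among 355 rRNA genes, which left 15043 genes. edgeR 4.0.16 fitted its quasi-likelihood model to all 22 libraries with a mean for each population and genotype, and calls were made at 0.05 or less after Benjamini-Hochberg adjustment over all genes tested, with no fold threshold. Alternatives were voomWithQualityWeights of limma 3.58.1, the test of the study's methods, DESeq2 1.42.0, RLE factors, no filter, rRNA genes kept, a replicate block, each genotype alone, each library left out and 2 libraries left out together. The SE given with an edgeR difference is the absolute log2 difference divided by the square root of its F statistic. It is a rough measure for genes near 0 counts. Correlations use log2 normalized CPM with a prior count of 2 and have no p-value. Depth was 16594228 to 26784003 counts per library, and the floor of 3 counts covers counting error only, as the reads carry no molecular identifiers. Replicate libraries of a group differed by 52.4 to 451.9 times what counting error alone gives, by chi-square, and no pair agreed within counting error.

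The 10 genes, the gene lists and the tests were chosen with earlier results of these data known. Genes named beside the 10 members are up to 3 called genes of each list with the largest difference between CD45- and CD45+ populations, and the genes most correlated with *Krt18*, *Epcam*, *Esr1* and the mean of the members. A gene that this rule names is not reported here. List genes with counts near 0, *Cdh2*, *Sp7*, *Ptprc* and *Msln* were named after their values were seen.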

Additional observations from a re-analysis of the deposited data

Results flagged for a closer look

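The *Epcam* values of the genotypes lay apart in opposite directions in 2 populations, and neither difference passed the edgeR test (adjusted p = 0.537 and 1). In TdTOSX single positive cells both libraries labelled cKO (0.411 and 0.0455 normalized CPM, 12 and 1 counts) were above both WT libraries (0 counts in each), and in double positive cells all 3 libraries labelled cKO (1.54, 1.79 and 0.541 normalized CPM) were below all 3 WT libraries (6.53, 2.98 and 7.96). Of all genes 21.4% lay apart in the same way in the former and 6.06% in the latter. Of the 2 cKO TdTOSX single positive libraries 1 was under the floor of 3 counts. The difference between these 2 populations was not tested. The genotype difference pooled over CD45- populations minus that over CD45+ populations was 2.21 on the log2 scale for *Epcam* (SE 1.84, edgeR adjusted p = 0.800). The summed level of 8 leukocyte genes was 5480 and 2485 normalized CPM in the cKO and 231 and 2230 in the WT TdTOSX single positive libraries, and its part in the counts was not tested. No group had 4 or more libraries, so single libraries were not tested as outliers.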

How the results depend on the processing

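Of 296 settings for the number of members called, 293 gave a count within 1.5 times the one reported, and 478 of 488 values of single members kept their direction and side of the threshold. DESeq2 called 1 member (*Epcam*) in the genotype difference of TdTOSX single positive against double negative cells. Leaving out single libraries gave 6 to 7 members called between CD45- and CD45+ populations, 0 to 1 between TdTOSX single positive and double negative cells and 0 to 1 between genotypes over 4 populations, where the 1 was *Krt18* without WT TdTOSX single positive replicate 2. Between TdTOSX single positive and double negative cells the *Epcam* difference turned from -2.44 to 0.26 with voom, 0.92 without WT double negative replicate 3 and WT CD45 single positive replicate 2, and 1.85 in cKO libraries alone, and *Cldn3* turned from -1.39 to 1.32 in cKO libraries alone. With single libraries left out, *Krt19* ranged there from -0.79 to 0.23 (without WT double negative replicate 1) and *Epcam* from -3.53 to 0.92 (without WT double negative replicate 3). Both *Epcam* values of 0.92 come from fits in which every WT CD45- library left had 0 counts of it (SE 1649 and 1568). They are not estimates of a difference over both genotypes. The cause of the other shifts was not tested. Without WT TdTOSX single positive replicate 2, that group held only replicate 1, the CD45- library lowest in *Krt18*.

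The labels give same-numbered libraries only a number and do not state whether they came from the same tumor. The main test took all libraries as independent. Of 30 such pairs 10 correlated above 0.1 in their deviations from the group means, and 12 of 22 libraries correlated best with their own number. The median was 0.0091 in WT and 0.054 in cKO for same-numbered pairs, and -0.031 and -0.014 for pairs of different number. In groups of 2 libraries the deviations mirror each other, so their pairs are not independent. Whether same-numbered libraries are paired cannot be settled from these values. The replicate block changed no call of a member, and took *Krt18* between TdTOSX single positive and double negative cells to -1.34 (adjusted p = 0.261).

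Counts over all genes moved more. Between CD45- and CD45+ populations 9583 genes were called, against 5592 in WT libraries alone. Between TdTOSX single positive and double negative cells 284 were called, against 716 with voom, 986 with DESeq2, 92 without the filter, 187 with the block, 1508 without the 2 libraries named above, 0 in WT and 1150 in cKO libraries alone, and 30 to 872 with single libraries left out. Between double positive and CD45 single positive cells edgeR called 1 gene and DESeq2 6. In the comparisons by genotype edgeR called 0 or 1 genes, while DESeq2 called between 1 and 560, and other settings gave at most 101, or 639 with single libraries left out.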

Other observations

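The mean log2 level of the members that passed the filter was followed most closely over the 22 libraries by *Klk10*, a kallikrein (Pearson correlation 0.964), *Dixdc1* (0.961), *Ankrd1*, a mechanically regulated gene of muscle and stroma (0.954), *Celf4* (0.954) and *C77080* (0.953). *Ankrd1* ranged from 24.0 to 96.7 normalized CPM in CD45- libraries and from 1.56 to 4.94 in CD45+ libraries, and *Klk10* reached at most 1.47 normalized CPM. Over the 10 CD45- libraries the genes closest to that mean were *Rps6ka6* (0.969), *Itga2*, a collagen-binding integrin (0.969), *Herc3* (0.968), *Kcnj12* (0.966) and *Tmprss11e*, a serine protease of squamous epithelia (0.962). *Tmprss11e* had a median of 24.6 normalized CPM in CD45- libraries, with a range from 0.306 to 78.5, and *Itga2* a range from 0.408 to 9.72. These correlations describe libraries that share the sort and the amplification, and carry no p-value.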
